A study of Mus musculus with 2 samples.

Results

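Liver plasma protein genes were measured in RNA of ureters from mouse embryos, as a list of 39 genes that holds secreted proteins of blood plasma and the liver enzymes Cps1 and Tdo2. The genes were chosen by name, and 38 of the 39 had at least 1 probe carrying their own name, with 49 probes in all among the 39429 probes of the array. Of these genes, 34 gave a signal above background that could be tested, among 20923 tested genes. The study compared mutant and control ureters of NMRI mice at stage E13.5 on 2 arrays of the two-colour type, on which mutant and control RNA were hybridised together in different dyes. The mutant pools carried the Cre allele Pax2-cre/+ together with Fgfr1(fl/?) and Fgfr2(fl/fl), and the control pools had Fgfr1(fl/?);Fgfr2(fl/?) without Cre, where fl is an allele that Cre can delete and the question mark stands for either a floxed or a wild-type allele. Ureters homozygous and not homozygous for floxed Fgfr1 may therefore have been mixed in the mutant pools. The floxed alleles were shared by mutants and controls. Cre was driven by regulatory sequence of Pax2, a gene active in the nephric duct and other tissues. Array 1 carried female pools with the mutant in Cy5 and the control in Cy3, and array 2 carried male pools with the mutant in Cy3 and the control in Cy5.

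Plasma proteins such as albumin, the serpins and fibrinogen are made mainly by hepatocytes, and in the embryo also by the endoderm of the yolk sac. Their genes share control by liver-enriched transcription factors of the HNF1, HNF4, FOXA and C/EBP families, which is why they are transcribed together in the liver. The ureter, a tube of urothelium, smooth muscle and fibroblasts that carries urine from kidney to bladder, is not known as a source of most of them.

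All ratios below are log2 ratios of mutant over control, so that 1 is a doubling, and levels are log2 intensities of 1 channel after normalisation. Because sex, dye and array change together, a difference between the arrays cannot be told apart by source, and array number limits the precision. The p-values rest on the spread between these 2 arrays, moderated by the spread over all genes. The spread between the arrays mixes embryos, sex, dye and technical variation, and the number of embryos per pool was not recorded in the labels. Between 67.9% and 77% of probes were above background in the 4 pools, and no spot was saturated. Both probes of Fgfr2, at chr7:137307455-137307532 in mm9, read 0.27 and 0.08 on array 1 and 0.06 and 0.09 on array 2. No source used here names the exons that the floxed allele loses, so that these probes check the genotype labels only if they lie in the deleted part. Ureter markers were present: all 14 genes of a list including Krt18, Cdh1, Tbx18 and Foxf1 were tested, and 13 were above background in all 4 pools.

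The 150 bases before the start of Alb, Afp and Serpina1a are shown because these genes gave some of the largest ratios of the list, and because they carry letters that HNF1 and C/EBP are known to bind. The sequences are those of RefSeq on GRCm38.p6, at chr5:90460720-90460869 (plus strand), chr5:90490564-90490713 (plus strand) and chr12:103863620-103863769 (minus strand), with the found motifs in capitals.
Alb: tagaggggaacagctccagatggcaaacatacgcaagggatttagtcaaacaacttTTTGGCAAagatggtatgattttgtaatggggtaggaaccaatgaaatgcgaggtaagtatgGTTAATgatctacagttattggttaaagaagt
Afp: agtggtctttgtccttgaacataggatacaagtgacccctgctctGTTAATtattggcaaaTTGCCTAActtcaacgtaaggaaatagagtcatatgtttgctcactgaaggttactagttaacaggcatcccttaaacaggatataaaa
Serpina1a: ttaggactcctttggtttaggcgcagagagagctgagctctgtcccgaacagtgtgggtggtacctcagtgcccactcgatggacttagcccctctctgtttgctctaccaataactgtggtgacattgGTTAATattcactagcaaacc
The motifs searched on both strands, from 250 bases before to 50 after the start, were GTTAAT, the core of the HNF1 site, and TTNNGCAA, a C/EBP motif, which do not overlap in these 3 promoters. Upstream of Alb they lay at -32 to -27 and -94 to -87 from the start, and upstream of Afp at -105 to -100 and -89 to -82. In Serpina1a GTTAAT lay at -21 to -16, and the C/EBP motif lay after the start, at 24 to 31, beyond the stretch shown. Promoters were found for 31 of the 39 genes, 33 promoters in all. GTTAAT was in 13 of these 33 promoters (39.4%), against 7.1% of all 32851 mouse promoters of that table, and the C/EBP motif was in 15 (45.5%), against 10.8%. Both were in 8 (24.2%), against 0.941% of all promoters: those of Afp, Alb, Fga, Fgb and 4 of the Serpina1 copies, Serpina1a, Serpina1b, Serpina1d and Serpina1e. A match describes the letters and is not a binding site.

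The liver genes were mostly higher in mutant than in control pools on both arrays, and more so on the female array. Among the 25 that were above background in all 4 pools, 19 had a ratio above 0 on both arrays, against a background of 22% of all genes passing that filter, and 2 had a ratio below 0 on both, against 21.4%. With no filter at all, 26 of the 38 genes with a probe were higher on both arrays (22.9% of all genes), and 2 were lower on both (21.2%). The median ratio of the 38 was 0.42 on array 1 and 0.13 on array 2, against 0.0028 and 0.0023 for all genes. Of the 34 tested genes, 9 passed the filter through the mutant pools alone, which is why counts over the 34 are given only as values: 26 were higher on both arrays (background 22.1%) with medians of 0.47 and 0.16. No member passed the threshold of 0.05 in limma's moderated test over all genes, where the background was 0.0287% (6 of 20923 genes), and the members' adjusted p ranged from 0.374 to 1.0. At an unadjusted p under 0.05 there were 16 members, all higher in the mutant pools (background 3.99% in either direction and 2.57% higher). In whole-tissue RNA such as this, fewer cells of a type and less RNA per cell cannot be told apart.

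**Figure D1:**
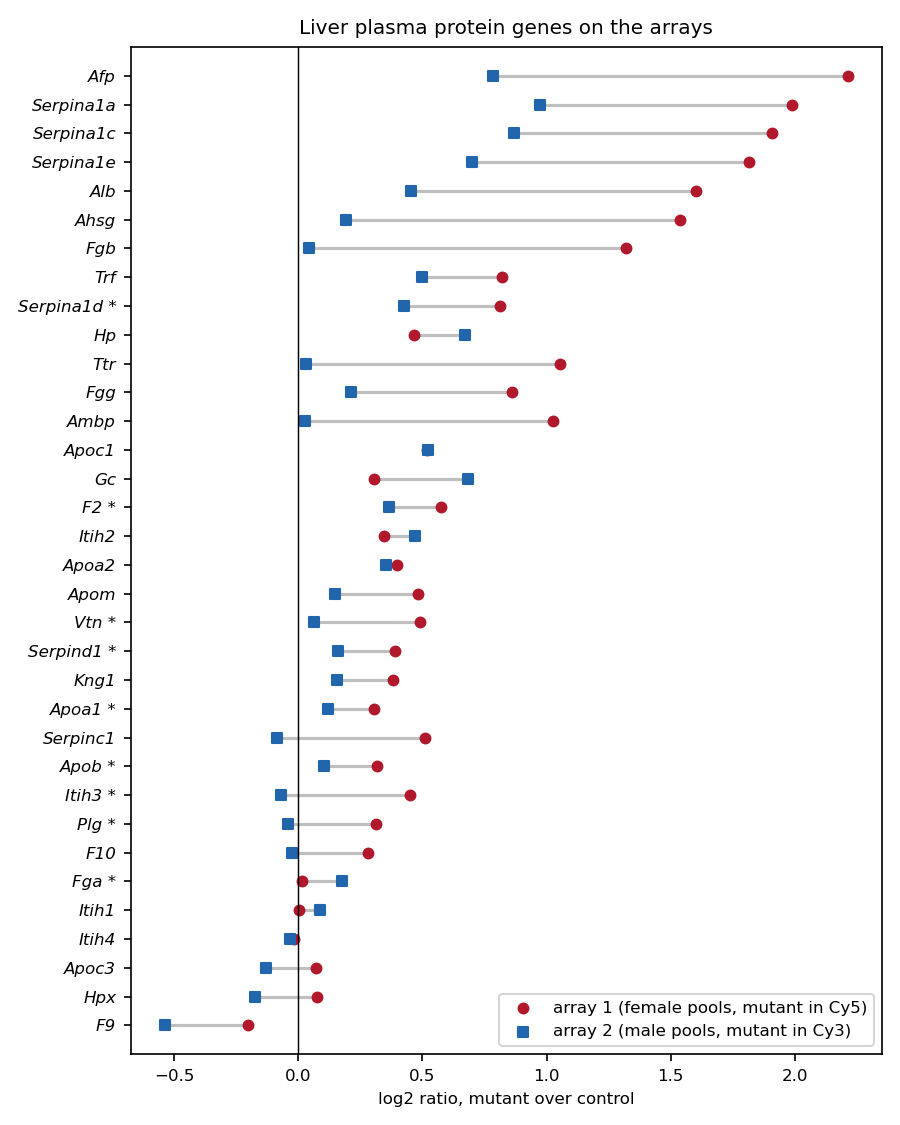
Log2 ratio of mutant over control for each of the 34 tested liver genes, with a circle for array 1 and a square for array 2 joined by a line, and genes ordered by their mean. An asterisk marks a gene not above background in both control pools. Afp, Serpina1a, Serpina1c, Serpina1e and Alb lie farthest to the right on array 1, and F9 lies left of 0 on both arrays.

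At a difference of at least 1.5-fold, array 1 held 11 of the 25 genes seen in all pools (background 1.63%), and array 2 held 6 of them (background 4.41%). With no filter 12 of the 38 genes reached it on array 1 (background 1.11%) and 6 on array 2 (3.55%), the same numbers as among the 34 tested genes (background 1.59% and 4.59%). The 4 that reached it on both arrays were Afp, Serpina1a, Serpina1c and Serpina1e (background 0.304%). The ratio was larger on array 1 than on array 2 for 20 of the 25 genes (background 50.2%). No test of the difference between the arrays is reported. With 1 array on each side, the sole residual of such a fit is the mean of mutant over control itself. Across the 34 members the ratios of both arrays had a Pearson correlation of 0.655, against -0.024 over all 20923 genes, as a description of genes that share the same 4 pools. The 34 include 9 genes that passed the filter through the mutant pools alone. They also include 3 Serpina1 copies with large ratios, whose probes share sequence. Since the members were also chosen with earlier results of these data known, no conclusion is drawn from the correlation.

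**Figure D2:**
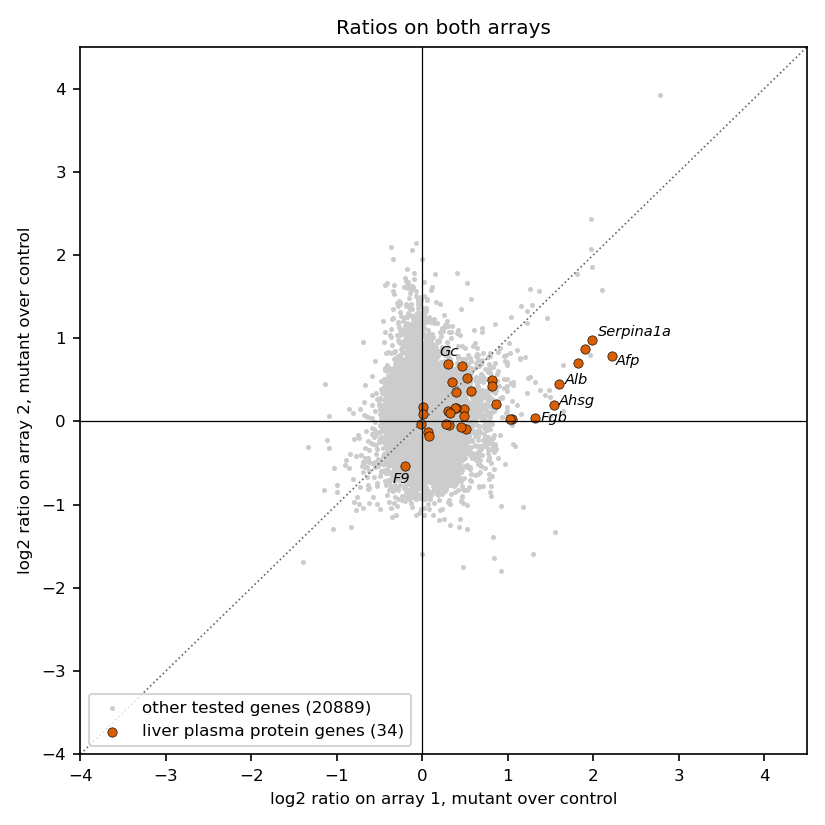
Log2 ratio of mutant over control on array 1 (horizontal) and array 2 (vertical) for the 34 liver genes in orange and the other tested genes in grey, with a dotted line of equal ratios. Most liver genes lie right of 0 and below the dotted line: 28 of the 34 had the larger ratio on array 1, against 49.7% of all genes.

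The carriers, proteins that bind small molecules, metals or haemoglobin in plasma, gave the largest ratios as a group. Of 9 tested, 8 exceeded 0 on both arrays (background 22.1%), and the medians were 1.02 on array 1 and 0.45 on array 2. Afp, alpha-fetoprotein, the main serum protein of the fetus, had levels of 11.997 in the female and 11.02 in the male mutant pool, against 9.78 in the female and 10.24 in the male control pool. Both mutant pools lay above both control pools, and the female mutant pool was the highest. Its ratios were 2.21 and 0.78, a mean of 1.5 ± 1.01 (SD, n = 2), or 2.83-fold, with a limma adjusted p of 0.573, and on array 1 it ranked 2 of 20923 genes, against rank 483 on array 2. Alb, albumin, which replaces Afp as the main serum protein after birth, had levels of 9.08 and 7.89 in the female and male mutant pools, against 7.48 and 7.44 in the female and male control pools. The control pools differed little for Alb, and its ratios of 1.6 and 0.45 (mean 1.03 ± 0.81, limma adjusted p 0.838) came from unequal mutant pools. Trf, transferrin, the iron carrier of plasma, had levels of 12.02 and 11.78 in the female and male mutant pools, against 11.20 and 11.28 in the female and male controls. The pools of a genotype lay close together for Trf, with ratios of 0.82 and 0.50 (mean 0.66 ± 0.23, limma adjusted p 0.771), and a second Trf probe read 0.85 and 0.38.

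Ahsg, fetuin-A, which keeps calcium phosphate from precipitating, had levels of 8.56 and 7.30 in the female and male mutant pools, against 7.02 and 7.11 in the female and male controls. Ttr, transthyretin, a carrier of thyroid hormone and of the retinol-binding protein, had 7.61 and 6.62 in the female and male mutant pools, against 6.56 and 6.59 in the female and male controls. Ambp, the precursor of a haem-binding lipocalin and of the protease inhibitor bikunin, had 10.25 and 9.31 in the female and male mutant pools, against 9.22 and 9.29 in the female and male controls. In each of these 3 genes the female mutant pool stood above the other 3 pools, which lay close together. Their ratios were 1.54 and 0.19 for Ahsg, 1.05 and 0.03 for Ttr, and 1.02 and 0.03 for Ambp.

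Hp and Gc ran the other way, with the larger ratio on array 2. Hp, haptoglobin, which binds free haemoglobin, had levels of 7.90 and 8.18 in the female and male mutant pools, against 7.43 and 7.51 in the female and male controls, and ratios of 0.46 and 0.67. Gc, the vitamin D-binding protein, had 7.39 and 8.17 in the female and male mutant pools, against 7.09 and 7.49 in the female and male controls, and ratios of 0.30 and 0.68. The Gc levels of the pools overlapped, since the female mutant pool lay below the male control pool, while a second Gc probe read 0.46 and 0.59. Hpx, haemopexin, which carries free haem, had ratios of 0.07 and -0.18. Alb, Afp and Gc are members of 1 family and neighbours on chr5, with probes between 89864029 and 90937840 of mm9.

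**Figure D3:**
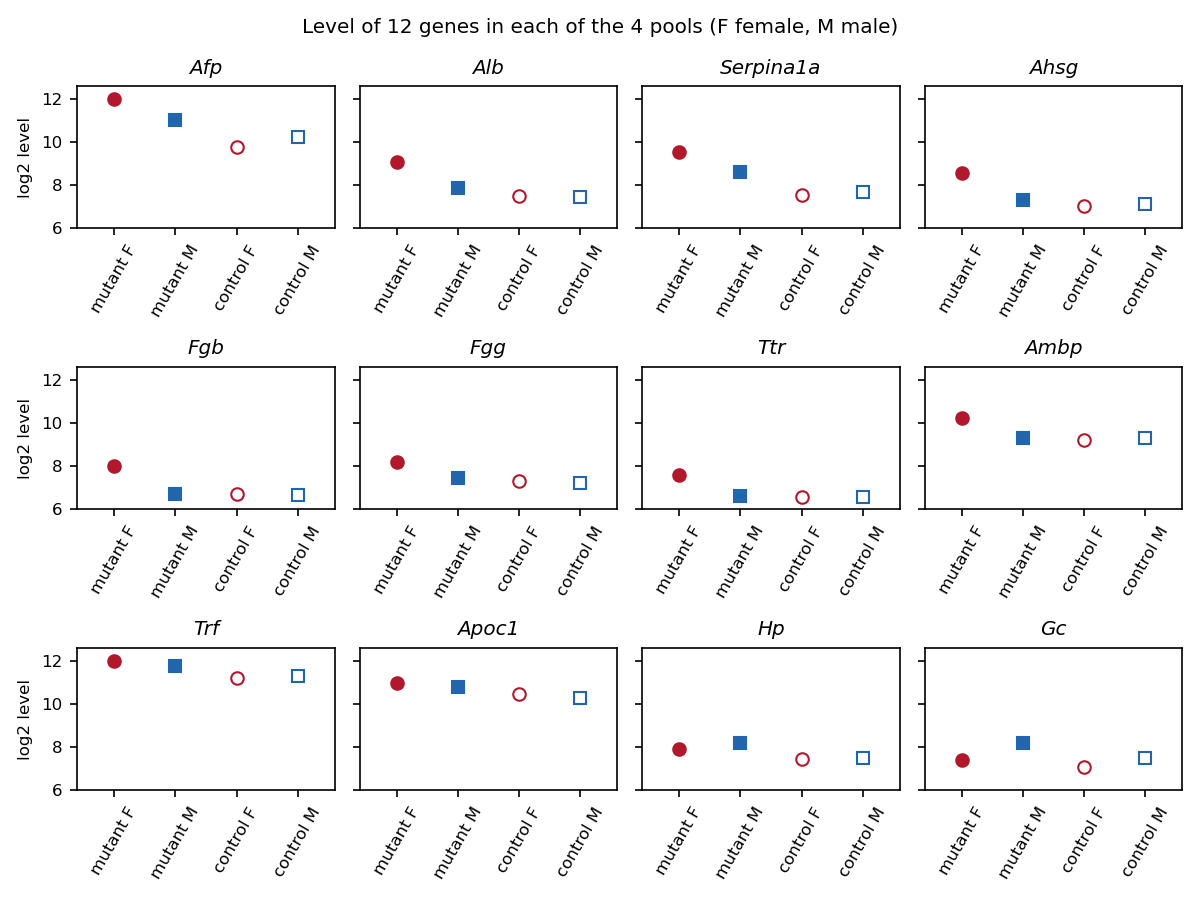
Log2 level of 12 liver genes in each pool, mutant pools as filled and control pools as open symbols, circles for female and squares for male, all panels on the same axis; heights are not compared between genes, since each has its own probe. In Ahsg, Fgb, Ttr and Ambp the female mutant pool stands alone, while in Trf and Apoc1 both mutant pools lie above both control pools.

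The protease inhibitors comprise the serpins, which trap proteases such as neutrophil elastase and thrombin, and the inter-alpha-trypsin inhibitor chains with related genes. Of 10 tested, 7 were higher and 1 was lower on both arrays (background 22.1% and 21.4%), with medians of 0.48 and 0.29. Serpina1d, Serpind1 and Itih3 passed the filter through the mutant pools alone, so that these counts are given only as values. The Serpina1 copies, mouse counterparts of the human gene for alpha-antitrypsin, carried most of the size. Serpina1a had levels of 9.52 and 8.63 in the female and male mutant pools, against 7.53 and 7.66 in the female and male controls, with ratios of 1.99 and 0.97 (mean 1.48 ± 0.72, SD, n = 2, limma adjusted p 0.374, the lowest of the list). Serpina1c read 1.91 and 0.87, and Serpina1e read 1.82 and 0.70. All 3 had both mutant pools above both control pools.

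These 3 readings are not independent, because their probes share sequence. The probes lie on chr12 (minus strand, mm9), at 105091819 to 105091878 for Serpina1a, 105133165 to 105133224 for Serpina1c and 105185172 to 105185231 for Serpina1e. The stretches below show the longest run, 29 bases, common to all 3 probes in capitals.
Serpina1a probe: tGTCATCCTTCCTTCTGAATTGGGTTCCTT
Serpina1c probe: tGTCATCCTTCCTTCTGAATTGGGTTCCTT
Serpina1e probe: aGTCATCCTTCCTTCTGAATTGGGTTCCTT
The Serpina1a and Serpina1c probes shared a run of 47 bases. Probes placed elsewhere in the copies are shown next, with the run of 17 bases that the Serpina1a and Serpina1e probes share in capitals. Their positions are chr12:105091979-105092038 for Serpina1a, chr12:105185290-105185349 for Serpina1e and chr12:105002930-105002989 for Serpina1d.
Serpina1a, second probe: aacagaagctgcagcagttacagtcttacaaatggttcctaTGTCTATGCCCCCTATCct
Serpina1e, second probe: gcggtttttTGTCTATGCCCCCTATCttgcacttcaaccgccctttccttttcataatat
Serpina1d: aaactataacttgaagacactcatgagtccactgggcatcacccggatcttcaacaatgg
The second Serpina1a probe read 0.85 and 0.25, the second Serpina1e probe 0.63 and 0.07, and the Serpina1d probe 0.81 and 0.43. A further Serpina1d probe, which was not above background often enough to be tested, read 0.50 and -0.03. The ratios were smaller with every probe outside the shared run, and those probes also had lower signals, nearer background. With the scanner software's processed signals, Serpina1d read 2.20 and 1.16. The probes with the shared run then read 2.54 and 1.25 for Serpina1a, 2.41 and 1.09 for Serpina1c, and 2.36 and 1.0 for Serpina1e. Serpina1d thus stayed the lowest of these on array 1, while on array 2 it exceeded Serpina1c and Serpina1e. Processed readings of the other probes outside the shared run are not given. Serpina1b had no probe of its own name; its RefSeq accession was listed on the Serpina1d probe and on the Serpina1c probe. An alternative added after seeing the data counted the tested copies, Serpina1a, Serpina1c, Serpina1d and Serpina1e, as 1 gene. Then 23 of 31 genes were higher on both arrays (background 22.1%), and the median of the mean ratios was 0.315. Genes that passed the filter through the mutant pools alone are still among the 31, so that this count is given only as a value.

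**Figure D4:**
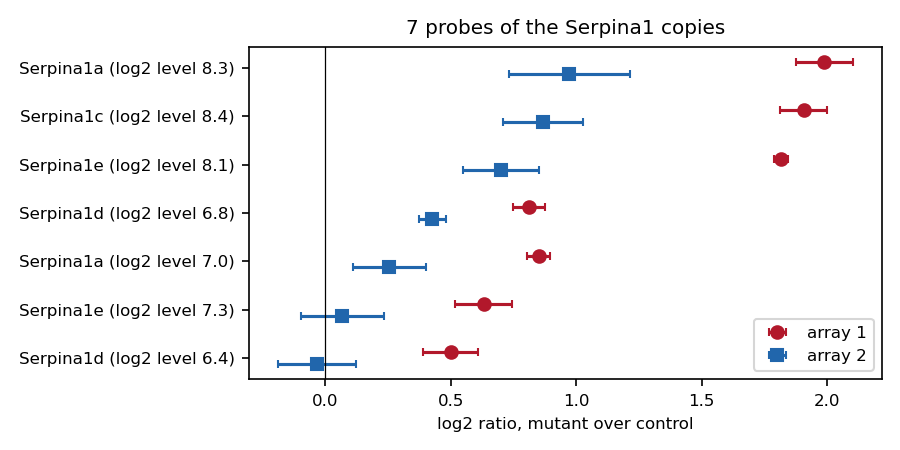
Log2 ratio of mutant over control for the 7 probes of the Serpina1 copies, circles for array 1 and squares for array 2, with bars of 1 SD over the spots of a probe and each probe's mean log2 level beside its name. The 3 probes with a shared run lie between 1.82 and 1.99 on array 1, and the other 4 lie between 0.50 and 0.85.

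Of the other inhibitors, Serpinc1, antithrombin, read 0.51 and -0.09, and Serpind1, heparin cofactor, read 0.39 and 0.16. The inter-alpha-trypsin inhibitor heavy chains, some of which are linked to hyaluronan in extracellular matrix, were divided. Itih2 read 0.34 and 0.47, Itih3 read 0.45 and -0.07, Itih1 read 0.00 and 0.09, and Itih4 read -0.02 and -0.03. The 3 chains encoded side by side on chr14, Itih1, Itih3 and Itih4, thus had ratios near 0 on array 2. Fetub, fetuin-B, a neighbour of Ahsg on chr16, was above background in 1 mutant pool alone and was not tested, with ratios of -0.03 and 0.07.

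Of the 9 clotting and adhesion genes, 6 were higher and 1 was lower on both arrays (background 22.1% and 21.4%). Their ratios had medians of 0.38 on array 1 (from -0.20 to 1.32) and 0.06 on array 2 (from -0.54 to 0.36). Vtn, Plg, F2 and Fga passed the filter through the mutant pools alone, so that the counts are given only as values. The chains of fibrinogen, the protein that thrombin turns into fibrin, lie together on chr3 and differed from each other. Fgb had levels of 8.01 and 6.71 in the female and male mutant pools, against 6.69 and 6.67 in the female and male controls, with ratios of 1.32 and 0.04. Fgg had 8.19 and 7.43 in the female and male mutant pools, against 7.32 and 7.22 in the female and male controls, with ratios of 0.86 and 0.21. Fga, above background in 1 of the control pools, read 0.01 and 0.18, and its second probe read 0.03 and 0.06. The Fgb ratio thus came from the female mutant pool. For Fgg the female mutant pool was the highest, and the male mutant pool also lay above both control pools. Fga had no such rise in the female mutant pool on its probes.

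F2, prothrombin, read 0.57 and 0.36, and Kng1, kininogen, the precursor of bradykinin, read 0.38 and 0.16. Vtn, vitronectin, an adhesion protein of plasma and matrix, read 0.49 and 0.06 against control signals not well above background. F10, coagulation factor X, read 0.28 and -0.03, and Plg, plasminogen, the precursor of the protease that dissolves fibrin, read 0.31 and -0.04, again against control signals not well above background. F9, coagulation factor IX, encoded on the X chromosome, had levels of 7.62 and 7.31 in the female and male mutant pools, against 7.82 and 7.85 in the female and male controls. Both mutant pools lay below both control pools, which held for no other member. Its ratios were -0.20 and -0.54, a mean of -0.37 ± 0.24 (SD, n = 2), with a limma unadjusted p of 0.0522 and an adjusted p of 1.0.

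The apolipoproteins, protein parts of the lipid particles of plasma, had medians of 0.36 and 0.13. On both arrays, 5 of 6 tested were higher (background 22.1%). Apoa1 and Apob passed the filter through the mutant pools alone, so that this count is given only as a value. Apoc1, a small exchangeable apolipoprotein, had levels of 10.97 and 10.80 in the female and male mutant pools, against 10.46 and 10.28 in the female and male controls. Its ratios of 0.52 and 0.52 were nearly equal, with a mean of 0.52 ± 0.0035 (SD, n = 2), yet the limma adjusted p was 0.956. Apoa2, of high-density lipoprotein, had 10.85 and 11.06 in the female and male mutant pools, against 10.46 and 10.71 in the female and male controls, with ratios of 0.40 and 0.35. A second, dimmer Apoa2 probe disagreed, reading 0.99 and -0.00 with a female mutant pool that stood above the other pools. Apom, which carries a signalling lipid in high-density lipoprotein, read 0.48 and 0.15. Apoa1, the main protein of high-density lipoprotein, read 0.30 and 0.12, and Apob, the core protein of low-density lipoprotein, read 0.32 and 0.10, both against control signals not well above background. Apoc3, an inhibitor of lipoprotein lipase, read 0.07 and -0.13.

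Apoh, a phospholipid-binding plasma protein, Cps1, which starts the urea cycle, and Tdo2, which degrades tryptophan, were above background in no pool, so that no level can be given for them. Neither control pool was above background for Vtn, Apob, Plg and Apoa1, so that the ratios given for them above are measured values and their folds have only a bound. On the mean of both arrays, and with the lowest signal counted as above background (or the control signal itself, where higher) as the floor of each control pool, Vtn was at least 1.20-fold, Apob at least 1.14-fold and Apoa1 at least 1.06-fold higher in mutant pools, with a limma adjusted p of 1.0 for each. The Apoa1 bound rests on array 1, since its male mutant level of 6.35 lay below the male control floor of 6.38. No bound is given for Plg, whose ratio was below 0 on array 2. Serpind1, F2, Itih3, Serpina1d and Fga were above background in 1 of the control pools.

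Among the 25 genes above background in all 4 pools, the highest level was in the female mutant pool for 18 (background 24.7% of genes passing that filter), in the male mutant pool for 4 (34.7%), in the female control pool for 1 (22.7%) and in the male control pool for 2 (17.9%). Over the 34 tested genes, 9 of which passed through the mutant pools alone, levels in the mutant pools on array 1 minus array 2 had a median of 0.32 and ran from -0.78 to 1.30, against a median of 0.03 over all tested probes. In the control pools the median was -0.02, with a range of -0.45 to 0.32, against 0.01 over all tested probes. The members' summed log2 level was 14.30 in the female and 13.86 in the male mutant pool, against 13.35 in the female and 13.43 in the male control pool.

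The ratios of dim genes differed in size under another processing. With the scanner software's processed signals, which replace both the background correction and the dye normalisation, the folds of 10 members moved by more than 1.5 times, all of them upward, and all 10 had mean log2 levels of 7.02 or less. Fgb then read 2.70 and 0.16, Ttr 2.59 and 0.26, Serpina1d 2.20 and 1.16, and Apoa1 1.91 and 0.97, while Afp at 2.29 and 0.82 was close to its values above. No member passed the limma threshold with those signals either, the lowest adjusted p being 0.294.

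Marker lists of other cells were read beside the liver genes, and their part in the result was not tested. Hepatocyte transcription factors stayed near 0, with medians of 0.07 and 0.02 over 10 of 15 genes tested, 4 higher and 2 lower on both arrays (background 22.1% and 21.4%). Foxa3, Nr0b2, Nr1i2 and Onecut1 were above background in no pool. Hepatocyte enzymes, transporters and receptors had medians of 0.09 and 0.05, with 12 of 18 tested higher and 0 lower on both arrays. In that list 11 of 31 genes were above background in no pool, among them Otc, Pck1, Mat1a and Cyp7a1, while Bhmt, of methionine metabolism, read 0.20 and 0.84. Its summed log2 level was 17.56 and 17.29 in the female and male mutant pools, against 16.92 and 17.46 in the female and male controls. Between 97.8% and 98.4% of that sum came from a single Slc10a1 probe, named here after its values were seen and listed with 4 RefSeq accessions, and without it the sums were 11.56 and 11.80 in the female and male mutant pools, against 11.42 and 11.56 in the female and male controls.

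Plasma protein genes outside the list had medians of 0.18 and 0.26, and 13 of 35 were above background in no pool. Of 18 tested, 12 were higher and 1 was lower on both arrays. The background was 22.1% and 21.4% of all tested genes, here and for the counts of the lists below. Serpina6, which encodes the corticosteroid carrier of plasma, read 1.65 and 0.68, Serpinf2, the inhibitor of plasmin, 0.79 and 0.65, and Rbp4, the retinol carrier, 0.49 and 0.56. Their summed log2 level was 12.18 and 12.07 in the female and male mutant pools, against 11.71 and 11.74 in the female and male controls. Liver sinusoid and Kupffer cell genes had medians of -0.02 and 0.13 (5 of 8 tested, 2 higher and 0 lower on both arrays), with Clec4f and Timd4 above background in no pool and a summed level of 10.43 and 10.36 in mutant pools, against 10.27 and 10.18 in controls. Visceral endoderm genes had medians of 0.15 and -0.11 (4 of 6 tested, 1 higher and 1 lower), with summed levels of 11.49 and 11.24 in mutant pools, against 11.36 and 11.40 in controls. Spink1, a trypsin inhibitor of that list, read 0.57 and 0.21. Proximal tubule genes had medians of 0.08 and -0.08 (8 of 11 tested, 1 higher and 2 lower), with summed levels of 12.27 and 11.99 in mutant pools, against 11.99 and 12.17 in controls. Intestinal genes had medians of 0.10 and 0.19 (6 of 9 tested, 3 higher and 0 lower), with summed levels of 10.82 and 10.697 in mutant pools, against 10.63 and 10.67 in controls, and with Cdx2 above background in no pool. Fabp1, a fatty acid-binding protein that hepatocytes make as well as gut, read 0.94 and 0.29.

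Blood cell genes were higher in the mutant pools alongside the liver genes. Erythroid genes had medians of 0.67 and 0.26, and 15 of 20 were higher and 0 lower on both arrays. The background of 22.1% higher and 21.4% lower among all tested genes applies to this and the next lists. Their summed log2 level was 19.50 and 19.43 in the female and male mutant pools, against 18.13 and 19.04 in the female and male controls, and Hba-a2, an alpha-globin gene, read 1.48 and 0.38. For the erythroid genes it was the female control pool that lay below the other pools, whereas for the liver genes it was the female mutant pool that lay above them. Leukocyte genes had medians of 0.63 and 0.66, and 17 of 20 were higher and 0 lower on both arrays. S100a9 and S100a8, calcium-binding proteins of neutrophils, passed the limma threshold, with ratios of 1.98 and 2.44 for S100a9, 1.98 and 2.07 for S100a8, and an adjusted p of 0.0166 for both. The leukocyte list's summed level was 14.37 and 14.40 in the female and male mutant pools, against 13.61 and 13.58 in the female and male controls. The ureter list went the other way, with medians of -0.20 and -0.37, 3 of 14 higher and 9 lower on both arrays, and summed levels of 16.43 and 16.25 in the female and male mutant pools, against 16.62 and 16.66 in the female and male controls. Within it Upk3a, a uroplakin of the urothelial surface, read 1.45 and 1.24 (limma adjusted p 0.0797), and Acta2, smooth muscle actin, read 0.98 and 0.17, while Foxf1, a transcription factor of the mesenchyme, read -0.64 and -0.81. Apart from S100a8 and S100a9, no gene of these lists passed the limma threshold, and no difference between lists was tested.

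**Figure D5:**
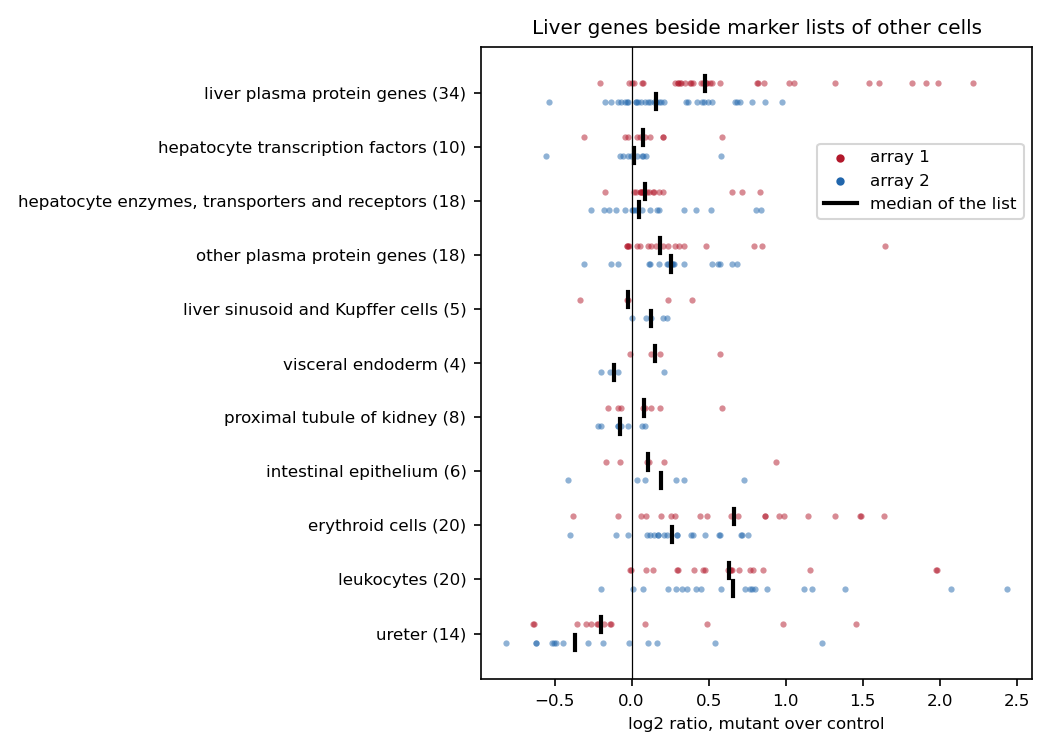
Log2 ratio of mutant over control for the tested genes of each list (number in brackets), array 1 in red above array 2 in blue, with a black bar at each median. The liver plasma protein genes and the erythroid genes have the larger median on array 1 (0.47 and 0.67), and the leukocyte genes have nearly equal medians on both arrays.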

How the data were processed

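RNA of mutant and control ureters was compared on 2 two-colour arrays with 150 ng of total RNA as input. Per the submitters' processing notes, Agilent Feature Extraction 10.7.3.1 read the arrays, whose probes were placed on mm9. Raw mean and background signals of each spot are intensity values, per the file headers. The deposited processed intensity had been background-subtracted and dye-normalized, and the deposited log10 ratios, not used, are red over green of that signal. The authors' deposited table holds a score per probe, a signed linear fold that ran as mutant over control (correlation with the ratios used here 0.909 and 0.942); its column medians were 1, and its steps and centring stay unknown.

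Normexp (offset 50) and loess within arrays (span 0.3) were run in limma 3.58.1 under R 4.3.3, without outlier-flagged spots (3.35% and 3.05%). Spots of a probe, usually 4, were averaged, and the ratio of array 2 was turned. Tested probes (27493) had a share over 0.5 of their spots well above background in the mutant pools on both arrays or in the control pools on both. The brightest of them stood for its gene; 5165 of 20923 genes had several. Ratios were tested against 0 with lmFit and eBayes and Benjamini-Hochberg adjustment at 0.05, with 1 residual and 6.14 prior degrees of freedom. Names came from RefSeq accessions (GRCm38.p6; 28328 of 39429 probes matched). Levels are log2 channel values after loess and Aquantile. The arrays shared a slide, which left no slide effect to test. The fit was tested on simulated data. The genes and lists were chosen with earlier results of these data known. All members are accounted for, and of other lists at most the 4 genes with the largest mean ratio of the same sign on both arrays are named with values, plus genes past the threshold. Some genes that this rule would name are not reported here. A planned test of the difference between the arrays is not reported, since 1 array per side leaves no replicate for it.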

Additional observations from a re-analysis of the deposited data

Results flagged for a closer look

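In 6 of the 34 tested members the ratio of mutant over control changed sign between the arrays. In each of them it was above 0 on the female array and below 0 on the male array. The ratio on the female array minus that on the male array was 0.201 for Apoc3, 0.306 for F10, 0.25 for Hpx, 0.521 for Itih3, 0.353 for Plg and 0.598 for Serpinc1. Serpinc1, antithrombin, read 0.51 and -0.09, and Itih3, an inter-alpha-trypsin inhibitor chain, read 0.45 and -0.07. A change of sign was common over the array: of all tested genes, 22.1% had both ratios above 0 and 21.4% had both below 0. It was rarer among the members than among all tested genes. Itih3 and Plg also passed the filter through the mutant pools alone. With 1 array per sex and the dyes exchanged, no test of the difference between sexes is reported.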

How the results depend on the processing

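No member passed the limma threshold under any setting tried, and the number of genes of the whole array past it, 6 as reported, was 0 with median centring in place of loess (852 at an unadjusted p under 0.05), 11 with the processed signals, 0 with no filter on dim probes (1071 unadjusted), 10 with probes above background in both groups and 0 with the 4 channels fitted separately (665 unadjusted). The median of the members' mean ratios, 0.391 as reported, was 0.795 with the processed signals and, with 1 array left out, 0.159 (without array 1) to 0.474 (without array 2); the cause of these moves was not tested. On a single array, 32 of the 34 members were above 0 on array 1 and 26 on array 2. The medians of all tested genes lay near 0 on each array, at -0.00056 and 0.0058, so that a ratio above 0 on a single array is common. These counts are therefore not comparable with the 26 members higher on both arrays, where the background was 22.1%. The mean ratio of Itih4 changed sign with median centring, to 0.017, a setting that moved the median of all genes to -0.08. Of 229 values of named members under settings that use both arrays, the other 228 kept their direction and stayed above the threshold. With 1 array left out, 6 members took the opposite sign: without array 1, Serpinc1 read -0.088, Itih3 -0.072, Plg -0.042 and F10 -0.026, and without array 2, Apoc3 read 0.069 and Hpx 0.074. Serpina1a read 1.42 and 0.61 as the mean of its probes. With 1 array left out there is a value with no test. The reported fit is itself paired, since each ratio sets a mutant pool against the control pool of the same array, so that no further replicate block could be added. Levels near background limit the ratios of dim genes.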
